A study of Mus musculus and Homo sapiens with 33 samples.

Results

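The genes described here are 43 genes of the amino acid response driven by the transcription factor ATF4, chosen by symbol from the RNA-seq count matrix of KPL cells, which holds 38924 genes. They fall into 4 roles: 11 stress factors, 14 enzymes of serine and amino acid synthesis, 7 amino acid transporters and 11 cytosolic aminoacyl-tRNA synthetases. KPL is a murine lung adenocarcinoma cell line. The RNA-seq libraries compare 3 libraries of control cells, named EtOH (ethanol) in the sample descriptions, with 3 libraries of cells given 4-hydroxytamoxifen (4-OHT, dose written as 10 nm) over 72 hours, a treatment which, per the labels, deletes Lin9, the gene of a core subunit of the MuvB complex. Neither the other alleles of the line nor what drives the deletion was given in the sources used here. All 6 libraries came from the same line, and no cells that received 4-OHT without the deletion were analysed here, so an action of the compound and one of the deletion cannot be told apart. The 27 ChIP-seq samples of the series were not analysed here.

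ATF4 is made when a sensor kinase such as GCN2 or PERK phosphorylates the initiation factor eIF2, because the short upstream reading frames of its mRNA then let ribosomes reach the coding frame. Most control of ATF4 is therefore translational, and its RNA level is a poor measure of the protein. With partners of the C/EBP family it binds C/EBP-ATF response elements (CARE) near genes for the synthesis, uptake and tRNA loading of amino acids. In growing tumour cells mTORC1 also maintains ATF4, and the pathway supplies serine, glycine and folate-bound one-carbon units for nucleotide synthesis.

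The RefSeq promoter table of build GRCm38.p6, with 250 bases before and 50 after each start, matched 35 of the 43 members, without an entry for Aldh1l2, Cth, Slc7a5, Slc1a5, Slc7a3, Wars, Nars and Lars. The CARE core was searched as TGATGNAA, where N is any base, on both strands. It was present in 14 of the 35 members (40.0%), against 4.51% of the 27025 genes in the table. The members were listed as genes of the ATF4 response, so this contrast describes the list and is no result of these libraries. The stretches below are shown because they carry this core in members that fell and in members that did not pass the test. Each reads 5′ to 3′ along the gene's strand, and capitals mark the core. When the core lies on the other strand it appears as its reverse complement, TTNCATCA.
Asns (chr6:7693210-7693248, minus strand): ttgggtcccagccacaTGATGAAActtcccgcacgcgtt
Pck2 (chr14:55540147-55540186, plus strand): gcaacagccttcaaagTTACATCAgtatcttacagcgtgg
Trib3 (chr2:152344031-152344054, minus strand): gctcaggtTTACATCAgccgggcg
Slc1a4 (chr11:20332702-20332725, minus strand): ctcctgcgTTGCATCAtctccagc
Gars (chr6:55037955-55037994, plus strand): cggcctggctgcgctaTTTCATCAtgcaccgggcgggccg
Iars (chr13:49682129-49682152, plus strand): tgtcagtaTTGCATCAcctccaga
Chac1 (chr2:119351033-119351072, plus strand): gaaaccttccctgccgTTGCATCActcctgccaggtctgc
Nupr1 (chr7:126625557-126625596, minus strand): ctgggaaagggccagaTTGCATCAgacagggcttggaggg
Vldlr (chr19:27216804-27216843, plus strand): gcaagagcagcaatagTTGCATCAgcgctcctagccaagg
Pycr1 (chr11:120643828-120643867, minus strand): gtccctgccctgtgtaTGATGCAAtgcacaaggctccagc
Slc7a11 (chr3:50443637-50443676, minus strand): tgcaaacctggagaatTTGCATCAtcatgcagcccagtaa
Tars (chr15:11399659-11399689, minus strand): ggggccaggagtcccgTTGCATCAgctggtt

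The core of Asns began 23 bases before the start and that of Pck2 103 bases before it. Those of Trib3 and Iars began at base 15 and base 8 from the start, in transcribed sequence. Aars, with matches on both sides of its start, and Yars, with 1 match, also carried the core. Of the 14 members with it, 7 were lower after 4-OHT in the test described below, namely Aars and the first 6 genes listed, and the others did not pass. Of the 21 matched members without the core, 15 were lower. Outside the members, 11 of 225 tested genes with the core were lower (4.89%). This was close to the 5.12% of the tested genes in the table without the core and the 5.17% of all genes tested. The cell cycle element CHR, searched as TTTGAA, is the element through which MuvB contacts DNA. It was present in Mars, Pck2, Pycr1 and Slc3a2, which is 11.4% of the matched members against 20.2% of all genes in the table. Outside the members, 122 of 1283 tested genes with CHR were lower (9.51%), against 4.44% of the tested genes in the table without it. The full cAMP response element TGACGTCA was found in 0 of the 35, and it is rare in the table, at 2.03% of all genes. A match describes these letters in this window and is no evidence of binding.

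The control libraries held 5859826 to 5876193 reads and the 4-OHT libraries 5894309 to 5913942, so precision differed little between them. Levels are given as CPM, counts scaled to library size with TMM factors, which lay between 0.994 and 1.005. Lin9 was counted at 156, 124 and 159 reads in control and 108, 107 and 101 reads in 4-OHT libraries (log2 fold change -0.49, adjusted p = 0.0011). Which exons the deletion removes was not given in the sources used here, so these reads may include exons outside it. Of the lung epithelial markers, the keratin genes Krt8, Krt18 and Krt19 and the adhesion genes Epcam and Cdh1 had 980 or more reads per library, the lung factor gene Nkx2-1 had 25 to 46, and the surfactant genes Sftpc, Sftpa1 and Sftpb had at most 1. Epcam and Cdh1 were lower after 4-OHT (log2 fold changes -0.38 and -0.14) and the keratins did not pass. The summed epithelial markers stood at 5490 to 5560 CPM in control and 5460 to 5620 in 4-OHT libraries. The summed immune markers stood at 1.2 to 4.79 CPM in control and 1.87 to 3.21 in 4-OHT libraries. Among them Cd68 had 6 to 24 reads per library and the T cell gene Cd3e 0 in every library. The summed endothelial markers stood at 7.36 to 9.94 CPM in control and 8.48 to 8.6 in 4-OHT libraries, with Tek at 27 to 44 reads. Of 6 mesenchymal markers Vim held nearly all reads, with a sum of 2780 to 2830 CPM in control and 3070 to 3120 in 4-OHT libraries, and the part of this rise in the results below was not tested. In bulk RNA, fewer cells of a kind (for example of a cell cycle phase) and less RNA per cell cannot be told apart. Nothing in the labels says that the libraries come from separate cultures, and p-values therefore measure only the spread between them, which may be technical. Beyond the sampling of reads, that spread was estimated at a common coefficient of variation of 2.58%.

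After 4-OHT most of the listed amino acid response genes were lower, by modest amounts. The list was chosen with earlier results of these data known. The shares below therefore describe this list, and no test of it as a group was run. Of 42 members tested, 27 fell, 1 rose and 14 did not pass the test (adjusted p under 0.05 in edgeR's quasi-likelihood test after Benjamini-Hochberg adjustment across the whole table). Among all 13355 genes tested, 9.79% passed, of which 5.17% of all genes were lower and 4.61% higher. The median log2 fold change of the tested members was -0.22, against 0.00 (0.0005) for all genes tested, and 38 of the 42 members had a value below 0, against 49.8% of all genes. Groups did not overlap for 33 members, 31 of them lower, where 24.3% of all genes tested had groups that did not overlap. The members took 0.617% to 0.63% of the reads in the control libraries and 0.553% to 0.563% in the 4-OHT libraries. The low-count filter removed 1 member, Slc7a5.

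**Figure D1:**
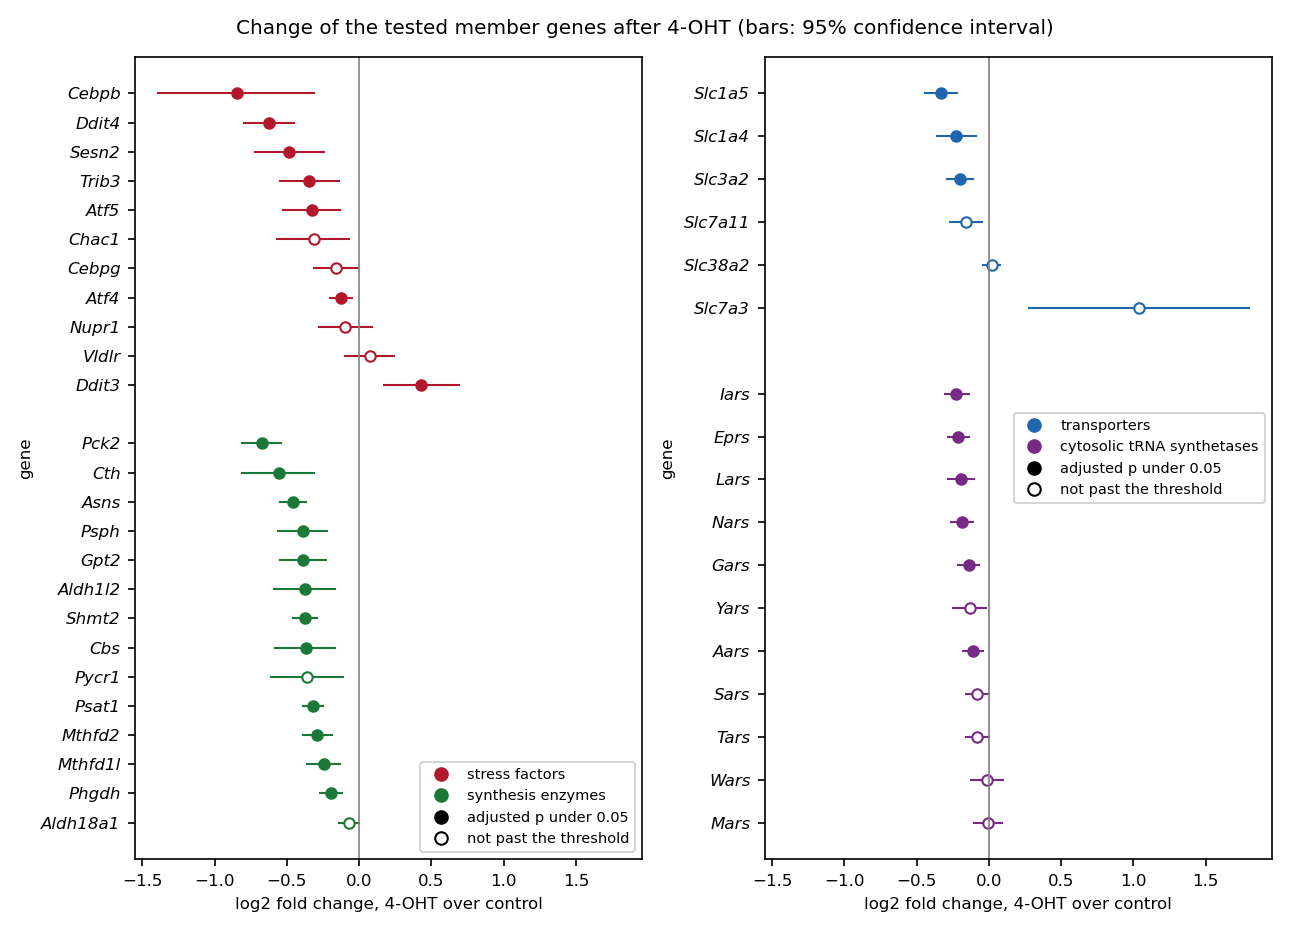
The log2 fold change of each of the 42 tested members (x axis, 4-OHT over control) is plotted with its 95% confidence interval, not adjusted for the number of genes, by role. Filled points passed an adjusted p of 0.05. All 14 synthesis enzymes and all 11 synthetases lie left of 0, while Ddit3 is the filled point to the right of it.

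Of the 4 roles, the enzymes of amino acid synthesis had the highest share called: 12 of 14 were lower, all 14 had values below 0, and the median log2 fold change was -0.37. The groups did not overlap for 13 of them, all but Aldh18a1. In DESeq2 10 of the 14 were lower, and without any 1 library 10 to 13.

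Serine is built from a glycolytic intermediate in 3 steps, catalysed by the products of Phgdh, Psat1 and Psph. Phgdh, the entry step, was counted at 1690, 1695 and 1746 reads without 4-OHT and 1493, 1526 and 1527 with it. Psat1, the transaminase of the middle step, was counted at 2252, 2275 and 2325 reads without 4-OHT and 1765, 1809 and 1976 with it. Psph, the phosphatase of the last step, was counted at 262, 243 and 276 reads without 4-OHT and 175, 219 and 210 with it. In each of these genes every 4-OHT library lay below every control library. Phgdh fell from 293 ± 5.33 to 257 ± 3.08 CPM (mean ± SD, n = 3 each; log2 change -0.19, SE 0.04, adjusted p = 6.66e-05), Psat1 from 392 ± 6.57 to 313 ± 19.3 CPM (log2 change -0.32, SE 0.04, adjusted p = 2.13e-11) and Psph from 44.6 ± 2.79 to 34.1 ± 3.88 CPM (log2 change -0.39, SE 0.08, adjusted p = 0.000469). What remained was 87.5% of the control level for Phgdh, 80.0% for Psat1 and 76.4% for Psph.

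Serine feeds one-carbon units into the mitochondrial folate pathway, whose 4 member genes were all lower. Shmt2, which splits serine into glycine and a one-carbon unit, was counted at 1160, 1183 and 1185 reads without 4-OHT and 898, 937 and 921 with it. Mthfd2, the dehydrogenase and cyclohydrolase that follows, was counted at 807, 788 and 741 reads without 4-OHT and 612, 664 and 657 with it. Mthfd1l, which releases formate, had 605, 583 and 573 reads without 4-OHT and 458, 527 and 521 with it, and the control libraries were again all higher. Aldh1l2, which oxidises formyl-folate to carbon dioxide, was counted at 145, 157 and 165 reads without 4-OHT and 124, 124 and 116 with it. Shmt2 fell from 202 ± 2.65 to 156 ± 2.97 CPM (log2 change -0.37, SE 0.04, adjusted p = 2.76e-11) and Mthfd2 from 133 ± 5.78 to 109 ± 4.61 CPM (log2 change -0.29, SE 0.05, adjusted p = 6.88e-06). Mthfd1l fell by 15.5% (log2 fold change -0.24, adjusted p = 0.00121) and Aldh1l2 by 23.0% (-0.38, adjusted p = 0.0104). Aldh1l2 no longer passed when control replicate 3 was left out (adjusted p = 0.0758) and in DESeq2 (0.129).

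Asns and Pck2 had the smallest p-values of all members. Asns, which makes asparagine from aspartate and glutamine, was counted at 966, 1015 and 1030 reads without 4-OHT and 694, 781 and 742 with it. It fell from 172 ± 5.93 to 125 ± 7.07 CPM (log2 change -0.46, SE 0.05, adjusted p = 3.52e-13), to 72.7% of control. Pck2, the mitochondrial phosphoenolpyruvate carboxykinase, which links the citric acid cycle to serine synthesis, was counted at 457, 436 and 482 reads without 4-OHT and 267, 312 and 293 with it. It fell from 78.6 ± 3.88 to 49.2 ± 3.71 CPM (log2 change -0.68, SE 0.07, adjusted p = 7.07e-14), to 62.6% of control. In both genes the gap between the groups was wider than the range within either. Gpt2, the mitochondrial alanine aminotransferase, was counted at 299, 274 and 270 reads without 4-OHT and 221, 194 and 237 with it and fell from 48.2 ± 2.63 to 36.8 ± 3.79 CPM (log2 change -0.39, SE 0.08, adjusted p = 0.00024).

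The transsulfuration enzymes, which turn homocysteine into cysteine, were both lower. Cbs, which joins homocysteine to serine, was counted at 185, 152 and 187 reads without 4-OHT and 132, 127 and 151 with it. Cth, which cleaves the product to cysteine, was counted at 120, 104 and 138 reads without 4-OHT and 86, 86 and 77 with it. In both genes control replicate 2 was the lowest control library but stayed above the 4-OHT libraries, by 1 read for Cbs. Cth fell from 20.7 ± 2.9 to 14.1 ± 0.854 CPM (log2 change -0.56, SE 0.12, adjusted p = 0.000761) and Cbs from 29.9 ± 3.33 to 23.1 ± 2.2 CPM (log2 change -0.37, SE 0.10, adjusted p = 0.00909). The Cbs call was lost in DESeq2 (0.125) and without any of 3 libraries in turn, with adjusted p of 0.085 without control replicate 1, 0.0869 without control replicate 3 and 0.0887 without 4-OHT replicate 2.

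The proline pair did not pass. Aldh18a1, which starts proline synthesis from glutamate, had the most reads of the uncalled enzymes, 2621, 2468 and 2613 reads without 4-OHT and 2559, 2423 and 2437 with it. Its groups overlapped, at 440.1 ± 14.1 CPM without and 419 ± 13.4 CPM with 4-OHT (log2 fold change -0.07, 95% interval -0.14 to 0.00, adjusted p = 0.203). Pycr1, the last step, had 100, 109 and 112 reads in control and 83, 80 and 90 in 4-OHT libraries, without overlap. Its log2 fold change was -0.36 (adjusted p = 0.0517), and it passed with DESeq2-style size factors and without 4-OHT replicate 3 (adjusted p = 0.0494 in each).

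**Figure D2:**
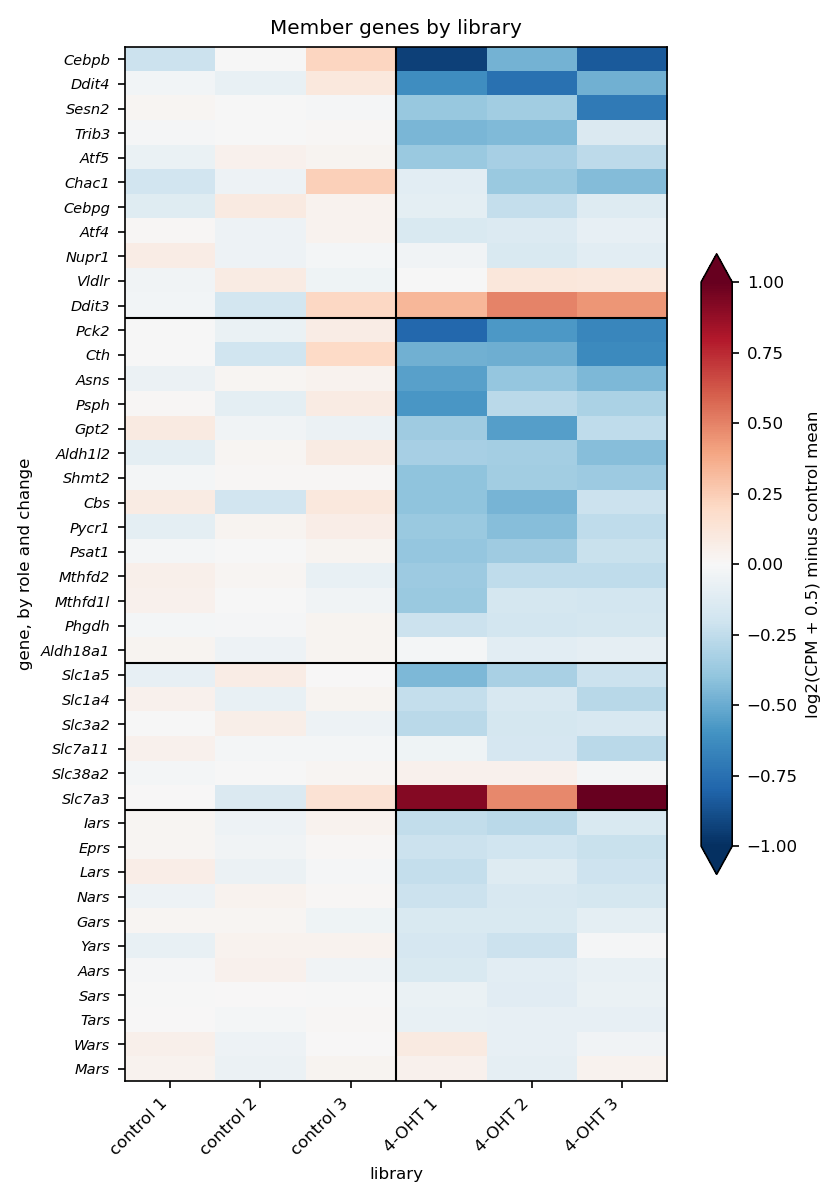
Each cell shows a tested member (rows, grouped by role) in 1 library (columns) as log2(CPM + 0.5) minus the mean of the control libraries, blue for lower and red for higher. The synthesis enzymes are blue in all 3 4-OHT libraries except Aldh18a1, which is pale, while Ddit3 and Slc7a3 are red there.

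Over the 42 tested members the median position against the control mean was -0.24, -0.21 and -0.20 on the log2 scale in 4-OHT replicates 1, 2 and 3, and between -0.01 and 0.03 in the control libraries. The synthesis enzymes stood at -0.38, -0.35 and -0.26 in the 4-OHT libraries and the synthetases at -0.15, -0.13 and -0.08. All genes tested had a median of 0.005 to 0.007 in those libraries, so the median of the members was lower in each of the 3.

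The stress factors changed in both directions: 6 of 11 were lower and 1 was higher, with a median log2 fold change of -0.32. In DESeq2 1 of them was lower and 0 higher, and 2 were lower without control replicate 3, 3 without 4-OHT replicate 1 or 2, and 4 without each other library. Atf4 itself was counted at 1582, 1513 and 1611 reads without 4-OHT and 1429, 1446 and 1499 with it. All 4-OHT libraries were below all control libraries, and the level fell from 269 ± 8.31 to 247 ± 6.56 CPM (log2 change -0.12, SE 0.04, adjusted p = 0.0239), to 91.8% of control. This call was lost in DESeq2 (0.171) and without any of 4 libraries in turn, with adjusted p of 0.114 without control replicate 1, 0.153 without control replicate 3, 0.117 without 4-OHT replicate 1 and 0.107 without 4-OHT replicate 2.

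Ddit4, which restrains mTORC1 under stress, had the smallest p-value in this role. It was counted at 251, 243 and 275 reads without 4-OHT and 167, 154 and 184 with it and fell from 43.9 ± 2.83 to 28.5 ± 2.63 CPM (log2 change -0.62, SE 0.09, adjusted p = 2.49e-08), to 64.9% of control, a call that passed under all alternatives run. Sesn2, which also restrains mTORC1 and senses leucine, was counted at 125, 123 and 122 reads without 4-OHT and 95, 98 and 75 with it and fell from 21.1 ± 0.243 to 15.1 ± 2.08 CPM (log2 change -0.48, SE 0.12, adjusted p = 0.00316). The lowest library of Sesn2 was 4-OHT replicate 3, without which the call was lost (adjusted p = 0.057), as it was in DESeq2 (0.0673).

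Trib3, a pseudokinase that feeds back on ATF4, was counted at 164, 165 and 167 reads without 4-OHT and 121, 123 and 151 with it, and 4-OHT replicate 3 was the nearest to control. Its level fell from 28.3 ± 0.277 to 22.3 ± 2.88 CPM (log2 change -0.35, SE 0.10, adjusted p = 0.0184), a call that was lost with adjusted p of 0.0592 without control replicate 1, 0.0656 without control replicate 3, 0.119 without 4-OHT replicate 1 and 0.122 without 4-OHT replicate 2. Atf5, a relative of ATF4 controlled in the same translational way, was counted at 157, 169 and 168 reads without 4-OHT and 128, 132 and 138 with it. It fell from 28.2 ± 1.18 to 22.5 ± 0.874 CPM (log2 change -0.33, SE 0.10, adjusted p = 0.0235), a call likewise lost with adjusted p of 0.0892 without control replicate 2, 0.0838 without control replicate 3, 0.0904 without 4-OHT replicate 1 and 0.077 without 4-OHT replicate 2. Neither passed in DESeq2 (0.183 and 0.204). The span of Atf5 shares 571 bases with that of Nup62 and 289 with that of Il4i1b.

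Cebpb, a C/EBP factor that pairs with ATF4, had few reads, 23, 27 and 32 reads without 4-OHT and 13, 19 and 14 with it. It fell from 4.69 ± 0.775 to 2.6 ± 0.535 CPM (log2 change -0.85, SE 0.27, adjusted p = 0.0288), and at this depth the 95% interval of the log2 fold change ran from -1.39 to -0.31. The call was lost in DESeq2 (0.242) and without any of 4 libraries in turn, with adjusted p of 0.0642 without control replicate 2, 0.171 without control replicate 3, 0.133 without 4-OHT replicate 1 and 0.0937 without 4-OHT replicate 3.

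Ddit3, the gene of CHOP, a factor of prolonged stress and cell death, was the 1 member that rose. It was counted at 75, 67 and 89 reads without 4-OHT and 98, 111 and 106 with it, so that all 4-OHT libraries lay above all control libraries. Its level rose from 13.2 ± 1.9 to 17.8 ± 1.07 CPM (log2 change 0.43, SE 0.13, adjusted p = 0.0203), 34.6% above control. The call was lost in DESeq2 (0.214) and without any of 4 libraries in turn, with adjusted p of 0.0917 without control replicate 1, 0.156 without control replicate 2, 0.0993 without 4-OHT replicate 2 and 0.0516 without 4-OHT replicate 3. The RefSeq spans of Ddit3 and Mars share 71 bases and those of Ddit3 and Mbd6 share 77, and Mars and Mbd6 themselves had log2 fold changes of -0.01 and -0.03.

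Of the stress factors that did not pass, Cebpg, the C/EBP partner with the most reads among them, was counted at 273, 314 and 303 reads without 4-OHT and 279, 255 and 274 with it, with overlapping groups (log2 fold change -0.16, adjusted p = 0.206). Chac1, which degrades glutathione, had a log2 fold change of -0.32 (95% interval -0.57 to -0.07, adjusted p = 0.102) and passed without 4-OHT replicate 1 (adjusted p = 0.0437). Nupr1, a small stress-induced chromatin protein, and Vldlr, a lipoprotein receptor, gave -0.10 (95% interval -0.28 to 0.09) and 0.07 (-0.10 to 0.24).

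Among the transporters 3 of 6 tested were lower and 3 did not pass, with a median log2 fold change of -0.18. Slc1a5, the main glutamine importer, was counted at 595, 661 and 632 reads without 4-OHT and 464, 509 and 548 with it. It fell from 108 ± 5.85 to 85.8 ± 7.16 CPM (log2 change -0.33, SE 0.06, adjusted p = 6.35e-06), and 4-OHT replicate 1 was the lowest library. Slc3a2, the heavy chain that carries several light-chain transporters to the membrane, was counted at 1048, 1089 and 1010 reads without 4-OHT and 881, 943 and 947 with it and fell from 179.8 ± 6.96 to 156 ± 6.12 CPM (log2 change -0.20, SE 0.04, adjusted p = 0.000619). Slc1a4, a carrier of serine and alanine, was counted at 378, 347 and 373 reads without 4-OHT and 313, 332 and 305 with it and fell from 62.7 ± 2.76 to 53.6 ± 2.17 CPM (log2 change -0.23, SE 0.07, adjusted p = 0.0177). The calls of Slc1a5 and Slc3a2 held under all alternatives run. That of Slc1a4 was lost in DESeq2 (0.189) and without any of 4 libraries in turn, with adjusted p of 0.103 without control replicate 1, 0.0793 without control replicate 3, 0.0549 without 4-OHT replicate 1 and 0.0726 without 4-OHT replicate 3.

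The other transporters did not pass or were not tested. Slc7a11, the cystine importer, had a log2 fold change of -0.16 (adjusted p = 0.0629) with groups that did not overlap, and it passed without 4-OHT replicate 1 (adjusted p = 0.0142). Slc7a5, the leucine importer that pairs with Slc3a2, was listed at 0 in all 6 libraries. The initiation factor gene Eif2s2, which every cell uses, was also listed at 0, so these entries say nothing about expression. Slc38a2, an alanine and glutamine carrier with the most reads of the uncalled transporters, was counted at 4166, 4188 and 4278 reads without 4-OHT and 4378, 4407 and 4202 with it. Its groups overlapped (log2 fold change 0.02, 95% interval -0.04 to 0.08). Slc7a3, a carrier of arginine and lysine, was counted at 7, 6 and 8 reads without 4-OHT and 16, 11 and 17 with it, all 4-OHT libraries being higher. It did not pass at these low counts (log2 fold change 1.04, 95% interval 0.28 to 1.80, adjusted p = 0.0675). The span of Slc7a3 shares 1086 bases with that of Snx12, whose log2 fold change was 0.07.

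**Figure D3:**
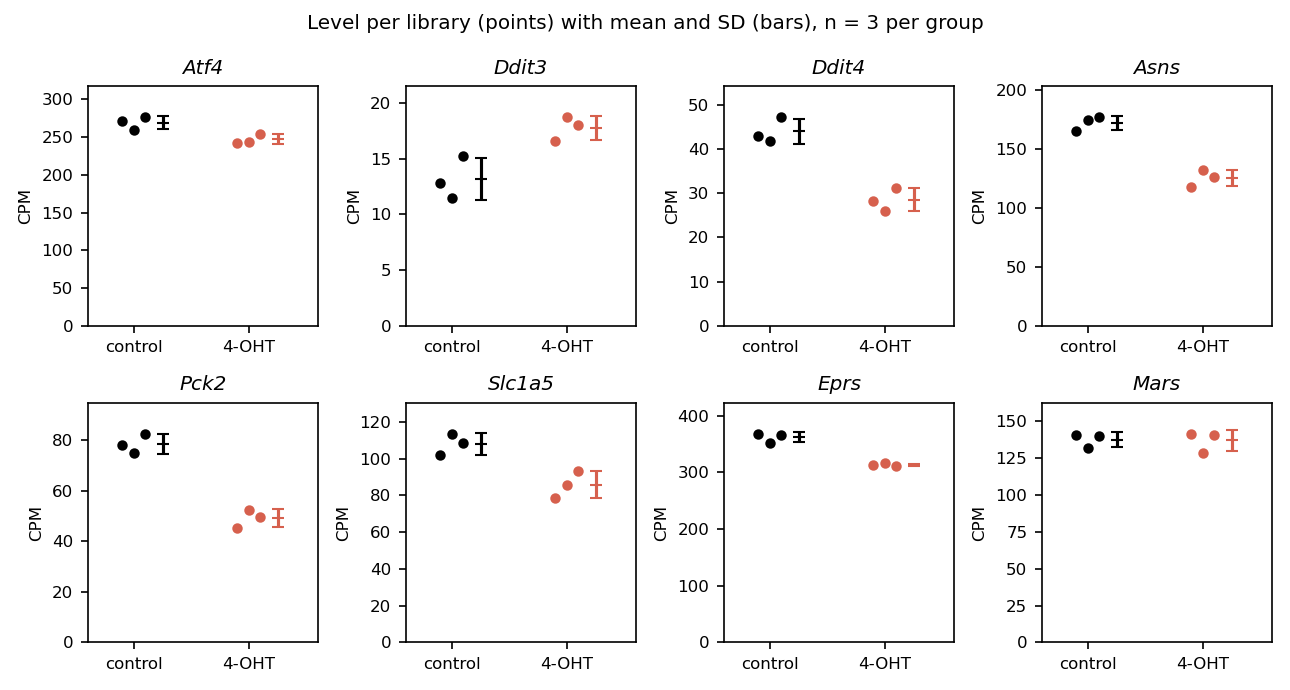
Points are the CPM of 8 members in each library and the bar beside them is the mean with its SD, n = 3 per group, on axes that start at 0. The groups separate in 7 of the 8 genes, with Ddit3 higher after 4-OHT, and overlap for Mars. These 8 were picked for display. Groups did not overlap for 33 of the 42 tested members and for 24.3% of all genes tested.

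Aminoacyl-tRNA synthetases join each amino acid to its tRNA, and the genes of many cytosolic ones answer to ATF4. Of 11 members 6 were lower and 5 did not pass, all with values below 0, with a median log2 fold change of -0.13 and a range from -0.22 to -0.01. The changes were smaller than among the synthesis enzymes, a difference that was not tested. In DESeq2 5 were lower, and without any 1 library 4 to 7.

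Iars, for isoleucine, was counted at 1412, 1336 and 1422 reads without 4-OHT and 1181, 1168 and 1266 with it and fell from 238 ± 7.73 to 204 ± 9.5 CPM (log2 change -0.22, SE 0.04, adjusted p = 2.10e-05). Eprs, which serves both glutamate and proline, was counted at 2149, 2052 and 2134 reads without 4-OHT and 1840, 1870 and 1832 with it and fell from 362 ± 8.38 to 313 ± 2.37 CPM (log2 change -0.21, SE 0.04, adjusted p = 3.25e-06). The 4-OHT libraries of Eprs lay close together, well below the lowest control library. Lars, for leucine, was counted at 1097, 1007 and 1042 reads without 4-OHT and 899, 974 and 916 with it and fell from 179.8 ± 7.49 to 157 ± 6.17 CPM (log2 change -0.19, SE 0.04, adjusted p = 0.00121). Nars, for asparagine, was counted at 1748, 1842 and 1822 reads without 4-OHT and 1567, 1637 and 1613 with it and fell from 309 ± 8.96 to 272 ± 5.46 CPM (log2 change -0.19, SE 0.04, adjusted p = 0.000112). These 4 calls held under all alternatives run.

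Gars, for glycine, was counted at 2163, 2148 and 2067 reads without 4-OHT and 1932, 1940 and 2005 with it and fell from 364 ± 8.84 to 332 ± 7.41 CPM (log2 change -0.14, SE 0.04, adjusted p = 0.00449), a call lost without control replicate 1 (adjusted p = 0.0593). Aars, for alanine, was counted at 2041, 2112 and 2003 reads without 4-OHT and 1868, 1938 and 1964 with it, with narrowly separate groups. It fell from 352 ± 9.91 to 326 ± 8.35 CPM (log2 change -0.11, SE 0.04, adjusted p = 0.0295). The Aars call was lost in DESeq2 (0.178), with the replicate block (0.0532) and without any of 4 libraries in turn, with adjusted p of 0.0917 without control replicate 1, 0.19 without control replicate 2, 0.181 without 4-OHT replicate 1 and 0.0827 without 4-OHT replicate 2. The span of Aars shares 3974 bases with that of Ddx19b, whose log2 fold change was 0.14.

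The 5 others did not pass. Sars, for serine, had the most reads among them, 1365, 1375 and 1370 reads without 4-OHT and 1326, 1287 and 1324 with it, and its groups did not overlap (log2 fold change -0.08, 95% interval -0.16 to 0.00, adjusted p = 0.222). Tars, for threonine, and Yars, for tyrosine, gave -0.08 (-0.16 to 0.00) and -0.13 (-0.25 to -0.02), and Yars passed without 4-OHT replicate 3 (adjusted p = 0.0281). For Mars, the methionine enzyme, and Wars, the tryptophan enzyme, the log2 fold changes were -0.01 (95% interval -0.10 to 0.09) and -0.01 (-0.12 to 0.10), intervals that leave out a fall as large as the estimate for Iars, Eprs, Lars or Nars. The sign of both changed with library totals alone.

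Other genes of the pathway were counted from lists drawn up by function. Of 9 further cytosolic synthetases and 3 scaffold proteins of their complex, 2 of 12 were lower and 10 did not pass (median log2 fold change -0.01). Vars, for valine, fell from 366 ± 7.72 to 294 ± 7.89 CPM (log2 change -0.32, SE 0.04, adjusted p = 1.41e-11), and Cars, for cysteine, from 134 ± 5.38 to 118 ± 0.82 CPM (log2 change -0.18, SE 0.05, adjusted p = 0.00556), a call lost without control replicate 3 (0.0805) and in DESeq2 (0.0838). Of 17 mitochondrial synthetases 1 was lower and 16 did not pass (median -0.09), a share of 5.88%, close to the 5.17% of all genes tested. That 1 was Hars2, for histidine (log2 fold change -0.32, adjusted p = 0.0421), a call lost with adjusted p of 0.231 without control replicate 1, 0.13 without control replicate 3, 0.201 without 4-OHT replicate 2 and 0.164 without 4-OHT replicate 3, 0.0511 with library totals alone and 0.294 in DESeq2.

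Of 11 other tested ATF4 target genes 5 were lower and 2 higher (median log2 fold change -0.04). The low-count filter removed Stc2, with 13, 6 and 9 reads without 4-OHT and 2, 5 and 1 with it. It also removed Fgf21, with 4, 3 and 2 reads without 4-OHT and 0 in each library with it. In the authors' deposited table Stc2 was lower (log2 fold change -1.78, FDR 0.0222) and Fgf21 did not pass (FDR 0.0535). Jdp2, a repressor of the AP-1 family, fell from 25.3 ± 1.59 to 18.1 ± 0.865 CPM (log2 change -0.48, SE 0.11, adjusted p = 0.00103). The autophagy receptor gene Sqstm1, which also answers to NRF2, rose from 333 ± 9.24 to 398 ± 8.41 CPM (log2 change 0.26, SE 0.04, adjusted p = 9.89e-09). The rest, named after their values were seen, were Adm2 (-0.87), Gadd45a (-0.67), Bcat1 (-0.27) and Xpot (-0.20), which were lower, and the mitochondrial protease gene Lonp1 (0.15), which was higher, as log2 fold changes. In DESeq2 none of these 5 passed, with adjusted p of 0.243 for Adm2, 0.157 for Gadd45a, 0.316 for Bcat1, 0.0542 for Xpot and 0.152 for Lonp1. Adm2 was lost without each of the 6 libraries in turn (adjusted p up to 0.108). Gadd45a was lost with adjusted p of 0.0593 without control replicate 1, 0.119 without 4-OHT replicate 1 and 0.0673 without 4-OHT replicate 2, Xpot with 0.0705 without control replicate 2 and Lonp1 with 0.123 without control replicate 1 and 0.104 without 4-OHT replicate 3. Bcat1 was lost with adjusted p of 0.37 without control replicate 3, 0.14 without 4-OHT replicate 1, 0.103 without 4-OHT replicate 2 and 0.068 without 4-OHT replicate 3. With all libraries kept, Bcat1 was also lost with library totals alone (0.0589), without the low-count filter (0.059), in limma-voom (0.0623) and with the replicate block (0.0524). The number lower was 2 without 4-OHT replicate 1 or 2, 3 without each other library and 1 in DESeq2. It was 4 with library totals alone, in limma-voom and with the replicate block, and 6 with either other filter.

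Upstream of ATF4, 15 genes were tested of the eIF2 kinases, eIF2, its exchange factor and their regulators. Of these, 1 was higher and 1 lower (median log2 fold change 0.02), both of them regulators. Ppp1r15a, the phosphatase subunit that reverses eIF2 phosphorylation and a target of CHOP and ATF4, was counted at 153, 185 and 169 reads without 4-OHT and 221, 218 and 236 with it and rose from 29.0 ± 2.79 to 38.1 ± 1.73 CPM (log2 change 0.40, SE 0.09, adjusted p = 0.000926), under all alternatives run. It thus moved in the same direction as Ddit3 and opposite to the 27 members that fell. Gcn1l1, which activates GCN2 at stalled ribosomes, fell from 215 ± 7.31 to 194 ± 8.6 CPM (log2 change -0.15, SE 0.04, adjusted p = 0.00669), a call lost with adjusted p of 0.112 without control replicate 1 and 0.0677 without 4-OHT replicate 1, and in DESeq2 (0.0906). A further 12 tested genes were those of mTORC1, its regulators and amino acid sensors, with the transcription factor genes Myc and Tfeb. Of these 1, the mTOR inhibitor gene Deptor, was higher (log2 fold change 0.20, adjusted p = 0.0331) and 11 did not pass (median of the 12, 0.03). The Deptor call was lost with adjusted p of 0.056 without control replicate 1, 0.0681 without control replicate 2, 0.163 without control replicate 3, 0.195 without 4-OHT replicate 1 and 0.0562 without 4-OHT replicate 3, and in DESeq2 (0.291).

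Of 12 further folate and glycine genes, 1 was lower and 1 higher (median log2 fold change -0.12). Gldc, which cleaves glycine, rose from 30.8 ± 3.3 to 39.2 ± 1.99 CPM (log2 change 0.35, SE 0.09, adjusted p = 0.00347), and Sfxn1, the mitochondrial serine importer, fell from 100.1 ± 2.54 to 87.7 ± 1.26 CPM (log2 change -0.19, SE 0.06, adjusted p = 0.0125). The Gldc call was lost without control replicate 3 (0.0529) and in DESeq2 (0.0824), and that of Sfxn1 without control replicate 1 (0.0785) and in DESeq2 (0.142). Of 8 tested glutamine and glutamate genes 0 passed in edgeR or DESeq2 (median -0.08), and 1 had an unadjusted p under 0.05 in edgeR. Of 6 other amino acid transporters tested 1 was lower and 1 higher (median -0.01). Slc6a6, the taurine carrier, rose from 393 ± 6.18 to 441 ± 6.17 CPM (log2 change 0.17, SE 0.03, adjusted p = 0.000111), and Slc7a1, a carrier of arginine and lysine, fell from 207 ± 7.59 to 185 ± 7.11 CPM (log2 change -0.16, SE 0.04, adjusted p = 0.00498), a call lost without control replicate 3 (0.0846) and in DESeq2 (0.0743).

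**Figure D4:**
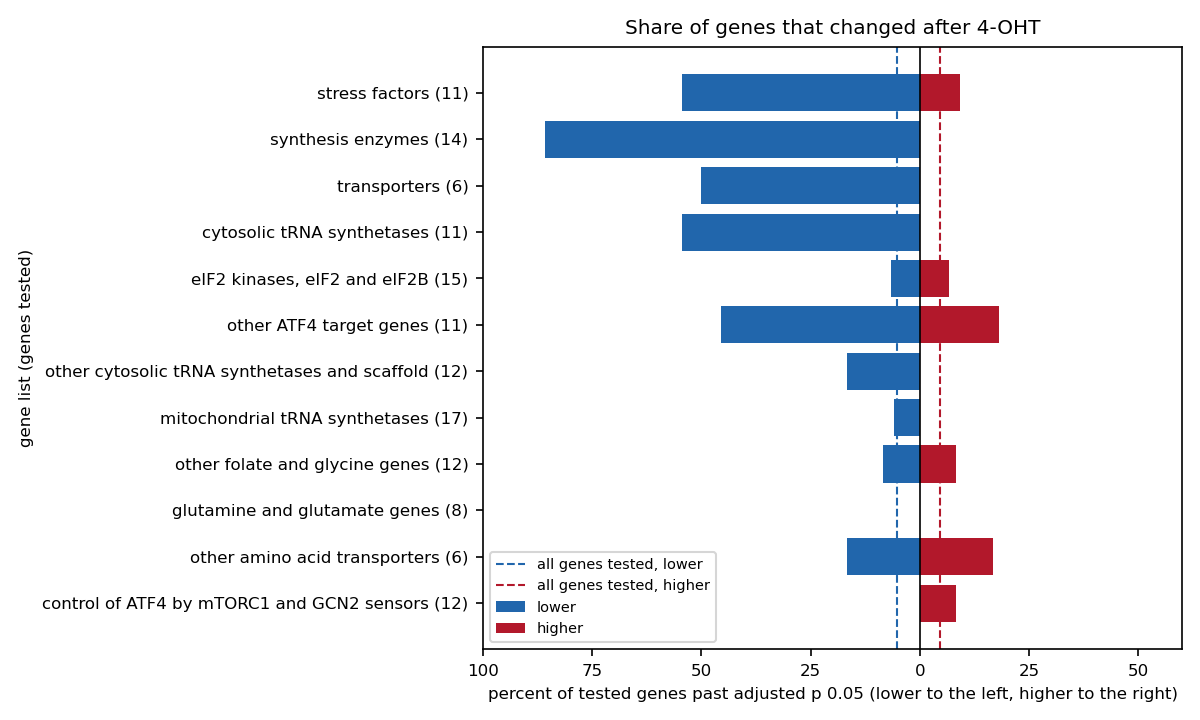
Bars give the percent of tested genes in each list that were lower (left, blue) or higher (right, red) after 4-OHT at an adjusted p under 0.05, with the number tested in brackets. Dashed lines mark the 5.17% lower and 4.61% higher among all genes tested; the 4 upper bars are the members, of which 12 of 14 synthesis enzymes were lower.

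In the authors' deposited table, 42 of the members are listed. At an FDR under 0.05 it has 26 of them lower and 1 higher, where 7.14% of its 17483 genes pass. Aars, lower in the test above, does not pass there (FDR 0.062), and Atf4 passes narrowly (FDR 0.0484). Its log2 fold changes differ from those above by at most 0.004 for any member.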

How the data were processed

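The authors deposited a matrix of raw read counts per Ensembl gene for the RNA-seq libraries. The authors' deposited table holds log2 fold changes, log2 mean CPM, p-values and FDR per gene, per the file headers. Per the submitters' processing notes, with no roles given, the tools include edgeR, bedtools 2.26.0, Bowtie 1.1.2, Bowtie2 and TopHat2 2.1.0. Neither the counting program nor its use of strand was given in the sources used here, and 9 members overlap a protein-coding gene in RefSeq (GRCm38.p6), so their reads may be shared.

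Of 38951 lines, 27 repeats of 12 IDs were kept once. Counts were filtered with filterByExpr (minimum count 10, minimum total 15) and tested in R 4.3.3 with edgeR 4.0.16 (TMM, robust quasi-likelihood test, two-sided, no replicate block). Alternatives used limma 3.58.1 and DESeq2 1.42.0, other scalings and filters, a block and leaving out each library. The fit was tested on simulated data. The members and lists were chosen with earlier results of these data known. All 6 values are given for called members, Atf4 and the uncalled member of each role with the most reads; of other lists the 2 called genes with the smallest p are named, others after their values were seen.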

Additional observations from a re-analysis of the deposited data

How the results depend on the processing

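Of the 28 members called, 17 passed under all 14 alternatives and 11 were lost under at least 1. No called member changed direction. The number of members called lower was 27 with library totals alone, upper-quartile factors, either other filter and limma-voom, 28 with DESeq2-style size factors, 26 with the replicate block, 18 in DESeq2, and 20 to 26 when 1 library was left out. The number called higher (Ddit3 in the results above) was 0 in DESeq2 and 0 to 1 when 1 library was left out. The median log2 fold change of the members lay between -0.239 and -0.205 when 1 library was left out. Over all genes DESeq2 called 362 lower and 208 higher against 691 and 616, and leaving out 1 library gave 508 to 643 lower and 403 to 542 higher, the fewest higher without control replicate 1. With library totals alone 647 were lower and 705 higher. The values of 2 uncalled members crossed 0: Mars was at 0.0036 with library totals alone, and ranged from -0.0364 to 0.0373 when 1 library was left out. Wars was at 0.0003 with library totals alone, and ranged from -0.0603 to 0.0284. The cause of these differences was not tested. Same-numbered libraries did not deviate together (correlations of -0.01, 0.01 and -0.03), so the numbers were not taken as pairs; the replicate block called 665 genes lower and 579 higher. Slc7a3 had no adjusted p in DESeq2. Depth limits Cebpb and Slc7a3, with at most 32 and 17 reads per library.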
